A study of Homo sapiens with 6 samples.

Results

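The 10 genes described here code for the cyclins and cyclin-dependent kinases (CDKs) that drive the cell cycle: the D-type cyclins CCND1 and CCND3 with CDK4, the E-type cyclins CCNE1 and CCNE2 with CDK2, and the A- and B-type cyclins CCNA2, CCNB1 and CCNB2 with CDK1. They were chosen by symbol, from a fixed list, among the 57905 genes of the deposited count table, and all 10 were found. The study used HCT116, an established human colorectal cancer line with a wild-type p53 response, and gave it Nutlin-3a, a small molecule that blocks the binding of p53 to MDM2 (HDM2), the protein that marks p53 for destruction. Libraries were made from total RNA of 2 biological replicates at each time, 6 in all. Nut 0h stands for HCT116 cells given the vehicle DMSO, Nut 1h for cells given Nutlin-3a at 10 µM for 1 h, and Nut 10h for cells given it for 10 h. No genetic change was made in any of these groups, and DMSO was common to all 3, since the drug was dissolved in it. Each group is a bulk culture of a single cancer line, so the values describe that line and not colon tissue.

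Cyclins are regulatory subunits that are made and destroyed in turn through the cycle, and each switches on a partner CDK. Cyclin D with CDK4 acts in G1 and phosphorylates the retinoblastoma protein RB, cyclin E with CDK2 acts at the entry into S phase, and cyclins A and B with CDK1 act from S phase to mitosis. p53 is known to halt this sequence by switching on CDKN1A (p21), an inhibitor of these kinases, after which RB and its relatives bind E2F factors and the DREAM complex represses many cell cycle genes.

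Total counts ran from 26068076 to 35473485 per library, so counting error was small for most of these genes. The lowest count of any of the 10 in any library was 59. Levels below are normalized counts, that is counts divided by a library size scaled with the TMM method and multiplied by the mean of those sizes. All 7 markers of a colorectal epithelial line (EPCAM, KRT8, KRT18, KRT19, CDH1, CLDN3 and CLDN4) were detected in every library. At 1 h 2 of them were higher (CDH1 0.51 and EPCAM 0.46 on the log2 scale) and 5 lower (CLDN3 -2.37 and KRT19 -0.98 first), and when each library was corrected by a smooth curve of its counts on GC content (the GC-content offset) 1 was higher and 1 lower. Over all genes tested 34.5% were called higher and 32.3% lower at 1 h. With that offset 3269 were higher and 4035 lower, of the 97.4% of the 16565 genes tested with a known sequence. At 10 h 2 of the 7 markers were higher (KRT19 0.87, CLDN4 0.70) and 1 lower (EPCAM -0.32), beside 14.1% and 14.9% of all genes tested. The part of these shifts in the results was not tested. PTPRC, CD3E, HBB, COL3A1 and DCN, which mark blood and stromal cells, had at most 2.52 normalized counts in any library. Of the other markers, COL1A1 had 782 to 1394 normalized counts (log2 fold change -0.78 at 1 h, called lower, and 0.16, not called, with the GC-content offset), VWF at most 22.2, and PECAM1 was not matched. ACTA2, a smooth muscle and myofibroblast gene, had 66.7 and 75.1 normalized counts with vehicle, 44.1 and 60.4 after 1 h, and 631 and 692 after 10 h (log2 fold change 3.22), and its part in the results was not tested. Mitochondrial genes took 4.99% and 6.18% of counts in the vehicle libraries, 8.44% and 8.15% in the 1 h libraries, and 6.45% and 7.06% in the 10 h libraries. The p53 response was seen in all 6 of its check genes at Nut 10h. CDKN1A rose 14.3-fold, MDM2 rose by 3.75 on the log2 scale, GDF15 by 3.01, BTG2 by 2.82, TP53I3 by 4.01 and RRM2B by 1.93. At Nut 1h MDM2 (2.19), BTG2 (1.06) and RRM2B (1.04) had already risen, GDF15 (-1.35) and TP53I3 (-0.34) were lower, and the log2 fold change of CDKN1A, 0.05, did not pass the test. TP53I3 (0.42) and CDKN1A (0.70) were called higher at 1 h with the GC-content offset, GDF15 (-0.18) and RRM2B (0.14) lost their calls, and MDM2 (1.51) and BTG2 (1.12) stayed higher.

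After 10 h of Nutlin-3a, 9 of the 10 genes had fallen and CCND1 had risen. The falls ran from 1.49-fold for CDK4 to 5.87-fold for CCNE2, with CCNA2 at 4.04-fold and CCNB1 at 3.12-fold, and the groups did not overlap for any of the 10. Among all 16565 genes tested with edgeR's quasi-likelihood test at an adjusted p of at most 0.05, 29.0% differed between these groups, 14.1% higher and 14.9% lower. The median log2 fold change was -1.15 over the 10 genes and 0.00 over all genes tested. The library pairs of 61.4% of all genes tested also did not overlap. In bulk RNA, fewer cells in a given phase of the cycle and less mRNA in each cell cannot be told apart.

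After 1 h the picture was different. CCNE2, CDK1 and CCNB1 were higher, CCND3 was lower, and the other 6 did not pass the test, against a background in which 66.9% of all genes tested differed, 34.5% higher and 32.3% lower. Under the GC-content offset 4 of the 10 were also called at 1 h, but in part other genes. CCNE2 stayed higher and CCND3 lower, CCNB1 and CDK1 lost their calls, and CCNA2 and CCNB2 were called lower. Over all genes that offset gave 7304 calls at 1 h, 3269 higher and 4035 lower, in place of 11077 of 16565 without it. The offset could be fitted only for the 97.4% of those 16565 genes with a known sequence. The median log2 fold change was -0.05 over the 10 genes and 0.05 over all genes. Between Nut 1h and Nut 10h all 10 differed, 2 higher (CCND1 and CCND3, the latter not with the GC-content offset) and 8 lower, and 67.9% of all genes tested did, 34.2% higher and 33.7% lower. The library pairs did not overlap between Nut 1h and Nut 0h for 9 of the 10 genes, beside 84.8% of all genes tested. Between Nut 10h and Nut 1h they did not overlap for any of the 10, beside 85.0% of all genes tested. Both comparisons with Nut 0h use the same control libraries.

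**Figure D1:**
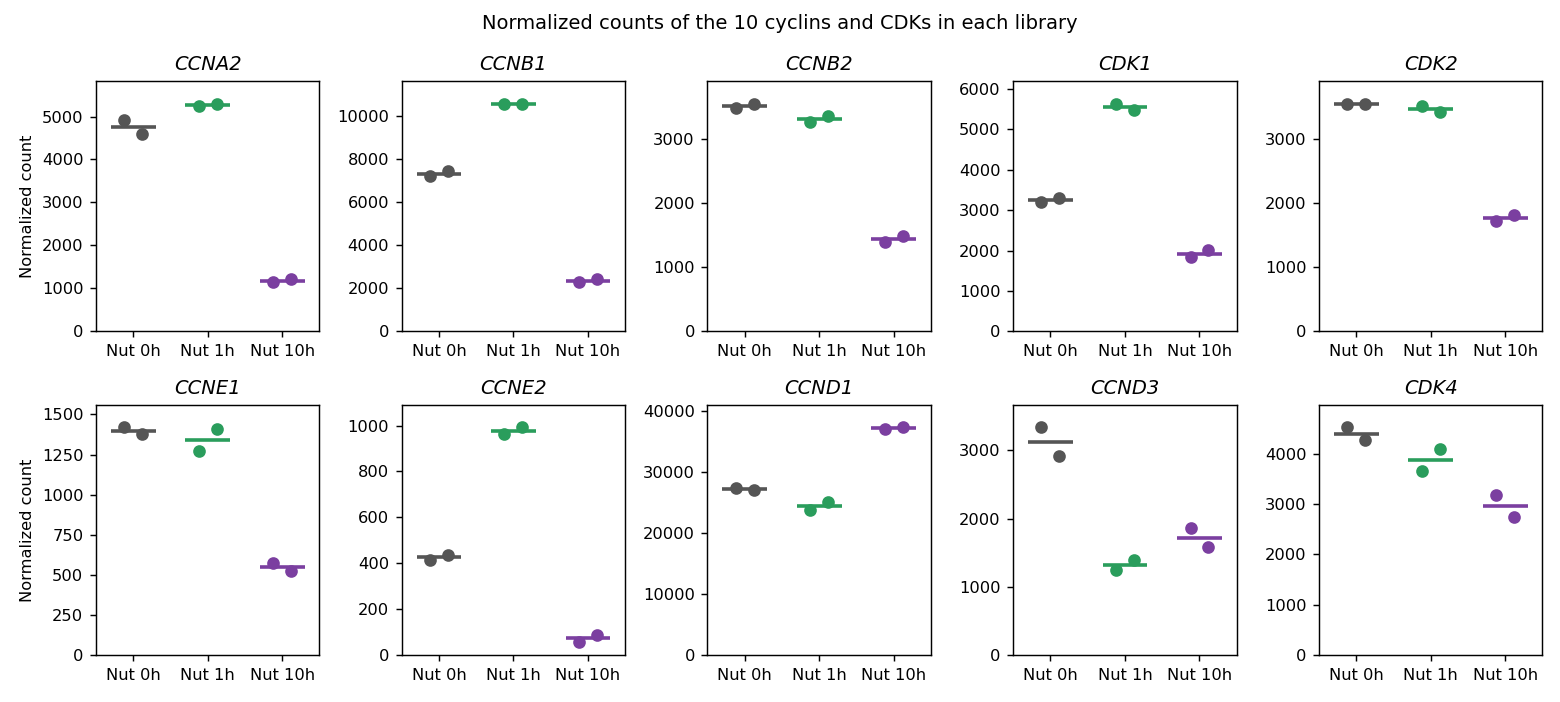
Normalized counts (vertical axis, from 0, a scale of its own in each panel) of the 10 genes in the 3 groups; each point is 1 library and each bar the mean of 2. For 9 genes both Nut 10h points lie below both Nut 0h points, and for CCND1 (37106 and 37373 against 27355 and 27145) both lie above.

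Cyclin D1, the product of CCND1, is the D-type cyclin that growth factor signals raise, and it activates CDK4 and CDK6. CCND1 lies at chr11:69455924-69469242 (GRCh37, plus strand). The vehicle libraries held 27355 and 27145 normalized counts of it, the 1 h libraries 23739 and 25114, and the 10 h libraries 37106 and 37373. Both 10 h libraries stood above the other 4, and both 1 h libraries stood lowest. The rise at Nut 10h was 1.37-fold (log2 fold change 0.45, SE 0.09, edgeR adjusted p = 0.00185). The difference at 1 h, a log2 fold change of -0.16 with a 95% interval from -0.35 to 0.04, did not pass the test (adjusted p = 0.136). LTO1 on the opposite strand covers 10.4% of the exon bases of CCND1 and had a log2 fold change of -0.04 at 10 h, not past the test.

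Cyclin D3, from CCND3 at chr6:41902672-42018095 on the minus strand, has the same partners. Its normalized counts were 3336 and 2915 with vehicle, 1248 and 1393 after 1 h, and 1855 and 1585 after 10 h. The vehicle libraries were the highest, the 1 h libraries the lowest and the 10 h libraries between them, with no overlap. CCND3 fell 2.37-fold at 1 h (log2 fold change -1.24, SE 0.11, adjusted p = 5.81e-07; -0.74, still called, with the GC-content offset) and was still 1.82-fold lower at 10 h (-0.86, SE 0.11, adjusted p = 3.92e-05). The 2 D-type cyclins thus differed in sign at Nut 10h, and relative to Nut 1h both were higher, CCND1 by 0.61 and CCND3 by 0.38 on the log2 scale. The CCND3 difference between Nut 1h and Nut 10h turned to -0.15 and was not called with the GC-content offset, and it lost its call with the length offset (0.17) and without the first Nut 1h library (0.30). CCND2, the other D-type cyclin, was too low to be tested: it had 1, 1, 0, 0 and 1 counts in 5 libraries and 31 in the second Nut 10h library.

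CDK4, the kinase that both D-type cyclins activate, lies at chr12:58141510-58149796 on the minus strand. The 2 vehicle libraries had 4526 and 4281 normalized counts, those of 1 h 3652 and 4108, and those of 10 h 3179 and 2738. The 10 h libraries were the lowest, and their fall of 1.49-fold (log2 fold change -0.57, SE 0.10, adjusted p = 0.000779) was the smallest of the 9. The 1 h difference of -0.18 did not pass the test (95% interval -0.40 to 0.04, adjusted p = 0.127). Between Nut 1h and Nut 10h CDK4 was lower by 0.39 on the log2 scale, a call lost without the second Nut 1h library (-0.30) or the second Nut 10h library (-0.24). Exons of TSPAN31 on the opposite strand cover 44.2% of the exon bases of CDK4. TSPAN31 had 241 and 267 normalized counts with vehicle and 316 and 401 after 10 h, higher by 0.50 on the log2 scale, the opposite sign to CDK4. The strand setting of the counting is not given in the sources used here, so reads of genes that overlap on opposite strands may not have been told apart.

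Cyclin E2 gave the largest fall of the 10 genes at Nut 10h. Cyclins E1 and E2 activate CDK2 at the start of DNA replication, and both genes are targets of E2F factors. CCNE2 lies at chr8:95891998-95908906 on the minus strand. Normalized counts were 416 and 436 with vehicle, 965 and 992 after 1 h, and 57.0 and 87.5 after 10 h, so the groups stood well apart, with 1 h highest and 10 h lowest. CCNE2 rose 2.30-fold at 1 h (log2 fold change 1.20, SE 0.13, adjusted p = 2.41e-06) and was 5.87-fold below vehicle at 10 h (-2.55, SE 0.16, adjusted p = 3.94e-08). From Nut 1h to Nut 10h it dropped 13.5-fold. With the GC-content offset the 1 h rise was 0.39 on the log2 scale, still called, and the difference from Nut 1h to Nut 10h was -2.98 in place of -3.75. It was also the least abundant of the 10, and its 10 h value rests on 59 and 94 counts. Exons of INTS8 on the opposite strand cover 37.05% of its exon bases; INTS8 had a log2 fold change of 0.47 at 1 h and 0.02 at 10 h, the latter not past the test.

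CCNE1, at chr19:30302898-30315219 on the plus strand, is the other E-type cyclin gene. The vehicle libraries gave 1419 and 1379 normalized counts, the 1 h libraries 1272 and 1407, and the 10 h libraries 573 and 524. The vehicle and 1 h libraries overlapped, with a log2 fold change of -0.06 (95% interval -0.28 to 0.15, adjusted p = 0.593). At 10 h CCNE1 was 2.55-fold lower (-1.35, SE 0.10, adjusted p = 2.48e-07).

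CDK2, at chr12:56360565-56366573 on the plus strand, is the partner of cyclins E and A. Its level was 3549 and 3552 normalized counts with vehicle, 3525 and 3424 after 1 h, and 1717 and 1819 after 10 h. The log2 fold change at 1 h was -0.03 (95% interval -0.22 to 0.16, adjusted p = 0.769). At 10 h the level was 2.01-fold lower (-1.01, SE 0.09, adjusted p = 1.13e-06), with both libraries well below the other 4.

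Cyclins A2, B1 and B2 and CDK1 carry cells from S phase through mitosis, and their genes are textbook targets of the DREAM complex and of the activators B-MYB and FOXM1. These factors act through short promoter elements, the CHR and the CCAAT box that NF-Y binds. The bases just before the start site are shown for the 4 genes because their promoters are the ones such elements are known from. These 4 fell at Nut 10h, but so did CCND3, CCNE1, CCNE2, CDK2 and CDK4. The part of the elements in the falls was not tested. The sequences are from RefSeq (GRCh38.p14, a later build than that of the counts), written 5′ to 3′ on the gene's own strand, and capitals mark matches to the CCAAT box (CCAAT, or ATTGG where it lies on the other strand) and to the CHR (TTTGAA or TTCGAA). The windows are chr4:121823884-121824003 (minus strand) for CCNA2, chr5:69167030-69167149 (plus strand) for CCNB1, chr15:59105026-59105145 (plus strand) for CCNB2 and chr10:60778448-60778477 (plus strand) for CDK1.
CCNA2: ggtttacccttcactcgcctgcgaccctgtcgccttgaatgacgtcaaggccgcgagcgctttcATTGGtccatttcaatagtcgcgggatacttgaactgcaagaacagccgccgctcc
CCNB1: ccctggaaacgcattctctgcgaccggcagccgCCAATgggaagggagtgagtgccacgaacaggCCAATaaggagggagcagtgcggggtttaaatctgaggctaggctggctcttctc
CCNB2: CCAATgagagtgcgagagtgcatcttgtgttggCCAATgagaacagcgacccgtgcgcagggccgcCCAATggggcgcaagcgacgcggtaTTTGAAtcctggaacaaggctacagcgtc
CDK1: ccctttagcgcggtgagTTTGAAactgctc

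RefSeq windows of 250 bases before to 50 after a start were found for 7 of the 10 genes, all but CCND1, CCNE2 and CDK2. Both strands were searched, and no match to one motif overlapped a match to the other in the windows given. CCNB2 held 4 CCAAT boxes (that at -244 lies outside the stretch printed), CCNB1 2 and CCNA2 1. The whole RefSeq window of CDK1 from which the shorter stretch above is taken held 2 (at -78 and -46, outside the stretch). The CHR letters were in the CCNB2 window (first base at -29), 3 times in that whole CDK1 window (-69, -13 and +10, of which only the match at -13 lies in the stretch printed), and in neither CCNA2 nor CCNB1. Only TTTGAA and TTCGAA were searched, so a CHR of other letters in the CCNA2 or CCNB1 window would have been missed. CCNE1 and CDK4 held neither motif, and of the 3 windows of CCND3, 2 held a single CCAAT box. Of 35116 RefSeq windows of this length, 34.6% held a CCAAT box and 16.4% the CHR letters. The other CDK1 window, of an earlier start, held 1 CHR match (-161) and 1 CCAAT box (-150). The letters of an E2F motif (TTTCGCGC, TTTGGCGC, TTTCCCGC, TTTGGCGG or TTTCCCGG) matched once in each of the 2 CDK1 windows, in no window of the other 6 genes and in 4.77% of all windows. The 2 CDK1 windows overlap, and their E2F matches are the same bases, at -128 from the later start and +20 from the earlier one. All of these are matches of letters only.

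CCNB1, which codes for the cyclin that switches on CDK1 at the entry into mitosis, lies at chr5:68462962-68474072 (GRCh37). Normalized counts were 7204 and 7425 in the vehicle libraries, 10568 and 10572 in those of 1 h, and 2286 and 2409 in those of 10 h. It was higher in both 1 h libraries, by 1.45-fold (log2 fold change 0.53, SE 0.09, adjusted p = 0.000108), a call lost with the GC-content offset (-0.03), and lower in both 10 h libraries, by 3.12-fold (-1.64, SE 0.09, adjusted p = 1.13e-08).

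CDK1, the mitotic kinase itself, lies at chr10:62538089-62554610. Its level was 3214 and 3299.9 normalized counts with vehicle, 5637.5 and 5493 after 1 h, and 1839.8 and 2007 after 10 h. It had the same order as CCNB1 (1 h, vehicle, 10 h), with a 1.71-fold rise at 1 h (0.77, SE 0.09, adjusted p = 4.93e-06), also lost with the GC-content offset (-0.03). Its fall at 10 h was 1.69-fold (-0.76, SE 0.09, adjusted p = 2.42e-05), smaller than those of all 3 of its cyclins, though the differences between genes were not tested.

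CCNA2, at chr4:122737599-122745038 on the minus strand, codes for the cyclin of S phase and G2. The vehicle libraries held 4921 and 4589 normalized counts, the 1 h libraries 5235 and 5297, and the 10 h libraries 1139 and 1217. The 1 h value (log2 fold change 0.15, 95% interval -0.05 to 0.34, adjusted p = 0.162) did not pass the test, turned to -0.42 and was called lower with the GC-content offset, and was called higher with the length offset (0.34). The fall at 10 h, 4.04-fold, was the second largest of the 10 (-2.01, SE 0.09, adjusted p = 4.07e-09). EXOSC9 on the opposite strand covers 9.24% of its exon bases and had log2 fold changes of 0.81 at 1 h and -0.92 at 10 h.

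CCNB2, at chr15:59397325-59417244 on the plus strand, codes for the second mitotic B cyclin. Normalized counts were 3488 and 3549.7 with vehicle, 3272 and 3360.3 after 1 h, and 1395 and 1487 after 10 h. It did not pass the test at 1 h (-0.09, 95% interval -0.28 to 0.10, adjusted p = 0.405), whereas with the GC-content offset it was called lower (-0.50). At 10 h it was 2.44-fold lower (-1.29, SE 0.09, adjusted p = 1.09e-07).

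**Figure D2:**
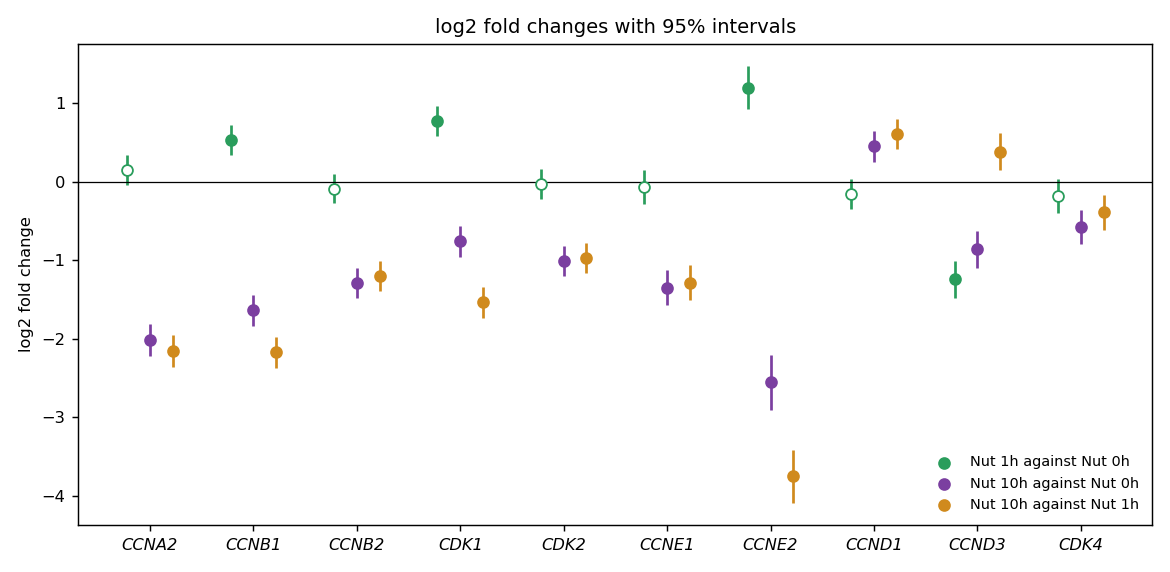
log2 fold changes of the 10 genes in the 3 comparisons, with 95% intervals from the edgeR fit (2 libraries per group); filled points had an adjusted p of at most 0.05 and open points did not. At Nut 10h against Nut 0h all 10 points are filled and only CCND1 (0.45) lies above 0, whereas 6 of the 10 points at Nut 1h are open.

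The 1 h values moved with base composition across the whole transcriptome. Over all genes tested with a known sequence (97.4%), the log2 fold change at Nut 1h against Nut 0h had a Pearson r of -0.69 with the GC content of the longest transcript, against -0.03 at Nut 10h. This r is across genes, which are not independent replicates. The 3 genes called higher at 1 h are AT-rich (CCNE2 36.9% GC, CDK1 36.96%, CCNB1 41.9%) and CCND3, called lower, is the most GC-rich of the 10 (56.2%). Genes within 1 percentage point of CDK1 had a median log2 fold change of 0.81 at 1 h, beside 0.77 for CDK1 itself. Around CCNB1 that median was 0.55, beside 0.53. Around CCNE2 it was 0.82, beside 1.20, and around CCND3 it was -0.56, beside -1.24. Of the genes not called, CCNA2 (41.9% GC) had a median of 0.55 around it, beside 0.15, and CCNB2 (44.3%) 0.40, beside -0.09. For CCND1 these values were -0.06 and -0.16, for CCNE1 -0.15 and -0.06, for CDK2 -0.13 and -0.03, and for CDK4 -0.18 and -0.18. With the GC-content offset, the 1 h calls of CCNB1 (-0.03, adjusted p = 0.756) and CDK1 (-0.03, adjusted p = 0.721) were lost, CCNE2 (0.39, adjusted p = 0.00371) and CCND3 (-0.74, adjusted p = 9.55e-07) kept theirs, and CCNA2 (-0.42, adjusted p = 0.000193) and CCNB2 (-0.50, adjusted p = 1.06e-05) were called lower. The part of base composition in the 1 h differences was not tested further. At Nut 10h against Nut 0h the same offset left all 10 calls and their signs as they were, with CCNE2 at -2.59 and CCND1 at 0.39.

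**Figure D3:**
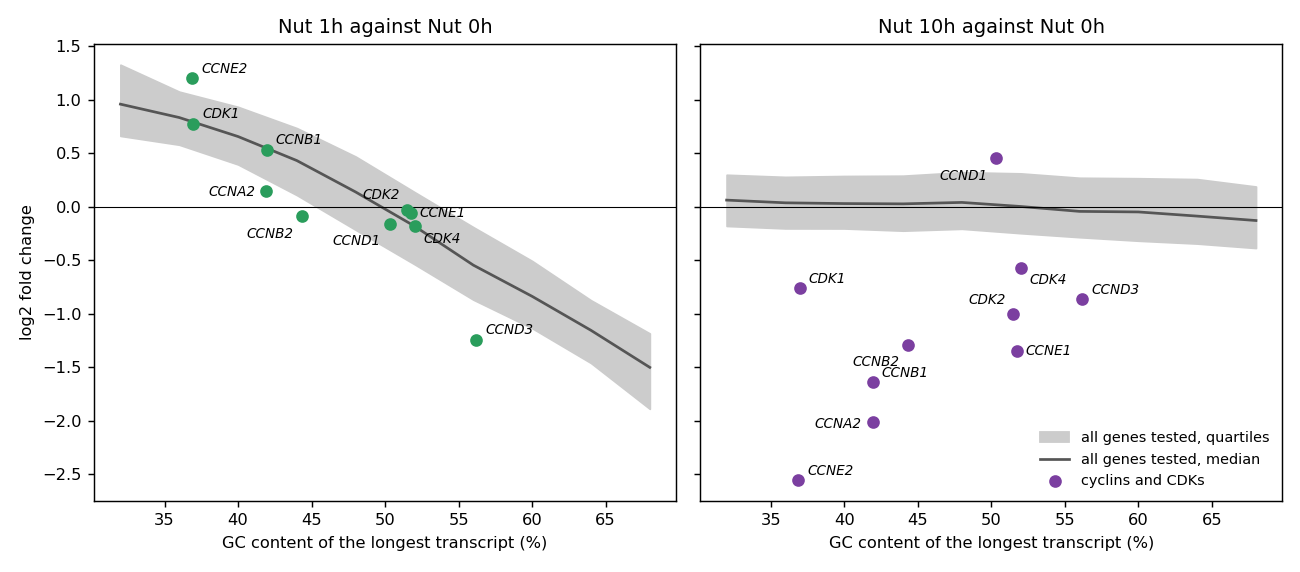
log2 fold change (vertical axis) against the GC content of the longest transcript in percent (horizontal axis), for the 10 genes (points) and for all genes tested in bins of GC content (line, median; grey band, quartiles). At Nut 1h CDK1 and CCNB1 lie on the sloping median line, while at Nut 10h the line is nearly flat and 9 of the 10 points lie below the band.

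Levels of different genes were compared per kilobase of the longest transcript. At Nut 0h CCND1 was the most abundant, with 6430 normalized counts per kb, followed by CCNB1 (3605), CDK4 (2361), CCNA2 (1730.3), CDK1 (1672), CCNB2 (1406), CDK2 (1367), CCND3 (1305), CCNE1 (716) and CCNE2 (128). The replicate ranges of CCNA2 and CDK1 overlapped, as did those of CDK2 and CCND3. At Nut 10h the order was CCND1 (8787), CDK4 (1586), CCNB1 (1157), CDK1 (987), CCND3 (718), CDK2 (681), CCNB2 (576), CCNA2 (429), CCNE1 (281) and CCNE2 (21.7), and only the ranges of CCND3 and CDK2 overlapped. CCNA2 thus moved from rank 4 to rank 8. CCND1 was first and CCNE2 last in every group also with the mean transcript length, whereas CCNA2 then stood at rank 8 at Nut 0h and rank 9 at Nut 10h.

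Of the level per kb summed over the 7 cyclins, CCND1 took 41.8% and 42.1% in the vehicle libraries and 73.3% and 73.5% in those of 10 h. CCNB1 took 23.0% and 24.1% with vehicle, 33.6% and 32.6% after 1 h, and 9.44% and 9.90% after 10 h. CCNA2 went from 11.6% and 10.98% to 3.47% and 3.69%. The sum itself was 15434 and 15207 normalized counts per kb in the vehicle libraries and 11939.8 and 11999 in the 10 h libraries. These shares depend on the length used. With the mean transcript length CCND1 took 58.8% and 59.0% with vehicle and 83.9% and 84.1% after 10 h, CCNA2 took 4.61% and 4.35% and then 1.12% and 1.19%, and the sum was 38847 and 38402 and then 36924 and 37098, a smaller difference.

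**Figure D4:**
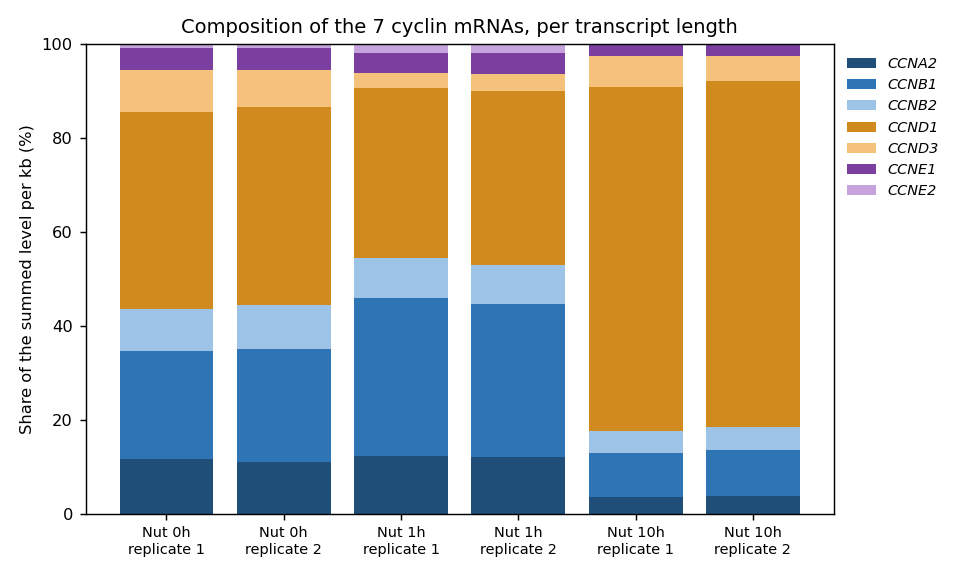
Share of each of the 7 cyclins, in percent, in their summed level per kb of longest transcript, for each of the 6 libraries. CCND1 fills 41.8% and 42.1% of the vehicle bars and 73.3% and 73.5% of the Nut 10h bars, while the A- and B-type cyclins at the foot of the bars shrink.

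The genes around the cyclins and CDKs were then counted by list, to be read against the all-gene shares given above (14.1% higher and 14.9% lower at 10 h, 34.5% and 32.3% at 1 h). Of the other cyclins and CDKs of the cycle, 4 of 6 could be tested. At Nut 10h CCNF, a cyclin-like F-box protein of G2, fell 3.82-fold and was the only one called; with the GC-content offset CDK6 was called too (0.37, adjusted p = 0.00541). Without that offset the log2 fold change of CDK6, the other partner of cyclin D, was 0.40 (adjusted p = 0.0564), with 2266 and 3029 normalized counts with vehicle and 2972 and 4013 after 10 h, which overlap. Of 17 cyclins and CDKs of transcription and CDK activation, 2 rose (CCNK 0.49, CCNL2 0.34), 1 fell (CDK11B -0.49, a near-identical copy of CDK11A, so that its reads could be split between the pair) and 14 did not pass, and their median was 0.05. Of 15 further CDK family kinases and cyclins 4 rose, led by CCNG1 (1.09), a known p53 target, and CCNG2 (0.52), and 2 fell (CDK5R1 -0.77, CDK16 -0.37). At 1 h, 9 of the 17 genes were higher (CCNT2 1.33 and CCNC 1.23 first) and 5 lower (CDK11A -1.30 and CDK10 -1.04), and 5 of the 15 were higher (CCNJ 0.83, CCNG1 0.76) and 6 lower (CDK18 -1.13, CCNJL -0.95), beside 66.9% of all genes tested called in either direction at 1 h. CDK6 (0.57), CCNB3 (0.51) and CCNF (-1.07) were also called at 1 h. With the GC-content offset CDK6 (-0.10), CCNB3 (0.14) and CCNG1 (0.00118) were not called at 1 h. The 17 genes then became 5 higher and 7 lower, with a median of -0.02 in place of 0.41, and the 15 became 1 higher and 6 lower. These counts stand beside 3269 genes higher and 4035 lower over all genes with the same offset. The base of those all-gene counts, here and below, is the 97.4% of the 16565 genes tested with a known sequence.

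The CDK inhibitors split in direction at Nut 10h, 2 higher and 6 lower of 8, beside 14.1% and 14.9% of all genes tested. CDKN1A, which binds cyclin-CDK complexes, held 10629 and 9286 normalized counts with vehicle, 9837 and 10726 after 1 h, and 145531 and 139682 after 10 h. CDKN2B, an inhibitor of CDK4 and CDK6, rose by 0.76 on the log2 scale. CDKN2C (-2.24), CDKN3 (-1.67), CDKN2D (-0.84), CDKN1C (-0.66), CDKN1B (-0.63) and CDKN2A (-0.42) fell; CDKN3 is a phosphatase of CDKs that is itself most abundant in dividing cells. At 1 h, when 34.5% of all genes tested were higher and 32.3% lower, none rose, CDKN1C (-1.98), CDKN2A (-1.50), CDKN2C (-1.13) and CDKN2D (-0.86) were lower, and CDKN1B (0.06), CDKN2B (0.33) and CDKN3 (0.17) did not pass the test. With the GC-content offset CDKN1A (0.70) was called higher at 1 h, CDKN1B (-0.46) and CDKN3 (-0.27) were called lower and CDKN2D (0.05) lost its call. This gave 1 higher and 5 lower, when 3269 of all genes were higher and 4035 lower with that offset.

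The regulators of CDK phosphorylation and the CKS subunits, which dock CDKs on their substrates, were all lower at Nut 10h, 7 of 7 with a median of -1.50, beside 14.9% of all genes tested. CDC25A, a phosphatase that activates CDKs, fell 5.32-fold and WEE1, a kinase that inhibits CDK1, fell 3.33-fold. At 1 h 3 of the 7 were higher (WEE1 0.72, CKS2 0.52) and 2 lower (PKMYT1 -1.44, CDC25B -0.87). These 4 named genes, with the GC-content offset, lost their calls (WEE1 -0.04, CKS2 -0.07, PKMYT1 -0.07, CDC25B -0.14). The list then had 1 higher and 1 lower, beside 3269 and 4035 over all genes. Of 14 genes of the ligases that destroy cyclins, 9 fell at Nut 10h, led by FBXO5 (-2.22), an inhibitor of the anaphase-promoting complex, and its activator CDC20 (-1.65), and FBXW7, which targets cyclin E, rose by 0.72. At 1 h, against all-gene shares of 34.5% higher and 32.3% lower, 5 of the 14 were higher (CDC27 0.71, FBXO5 0.66) and 8 lower (UBE2S -1.67, FZR1 -1.39). Of the 14, 1 was higher and 8 lower with the GC-content offset, against 3269 higher and 4035 lower over all genes. CDC27 (-0.10) was then not called, FBXO5 (-0.29) was called lower, and UBE2S (-1.20) and FZR1 (-0.24) remained lower.

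Of 20 RB, E2F and DREAM regulators 12 fell at Nut 10h, 3 rose and 5 did not pass, with a median of -0.51, beside 14.9% of all genes tested lower and 14.1% higher. E2F2 (-2.71) and E2F1 (-2.44), activators of S phase genes, fell most, and TFDP2 (0.58) and E2F7 (0.33, adjusted p = 0.04997) rose most. At 1 h, with the same all-gene shares as for the ligases, 13 were higher (E2F6 1.01, E2F3 0.98) and 5 lower (E2F1 -1.13, MYBL2 -1.06). With the GC-content offset 5 were higher and 5 lower, beside 3269 and 4035 over all genes, and E2F1 (-0.18) was no longer called.

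**Figure D5:**
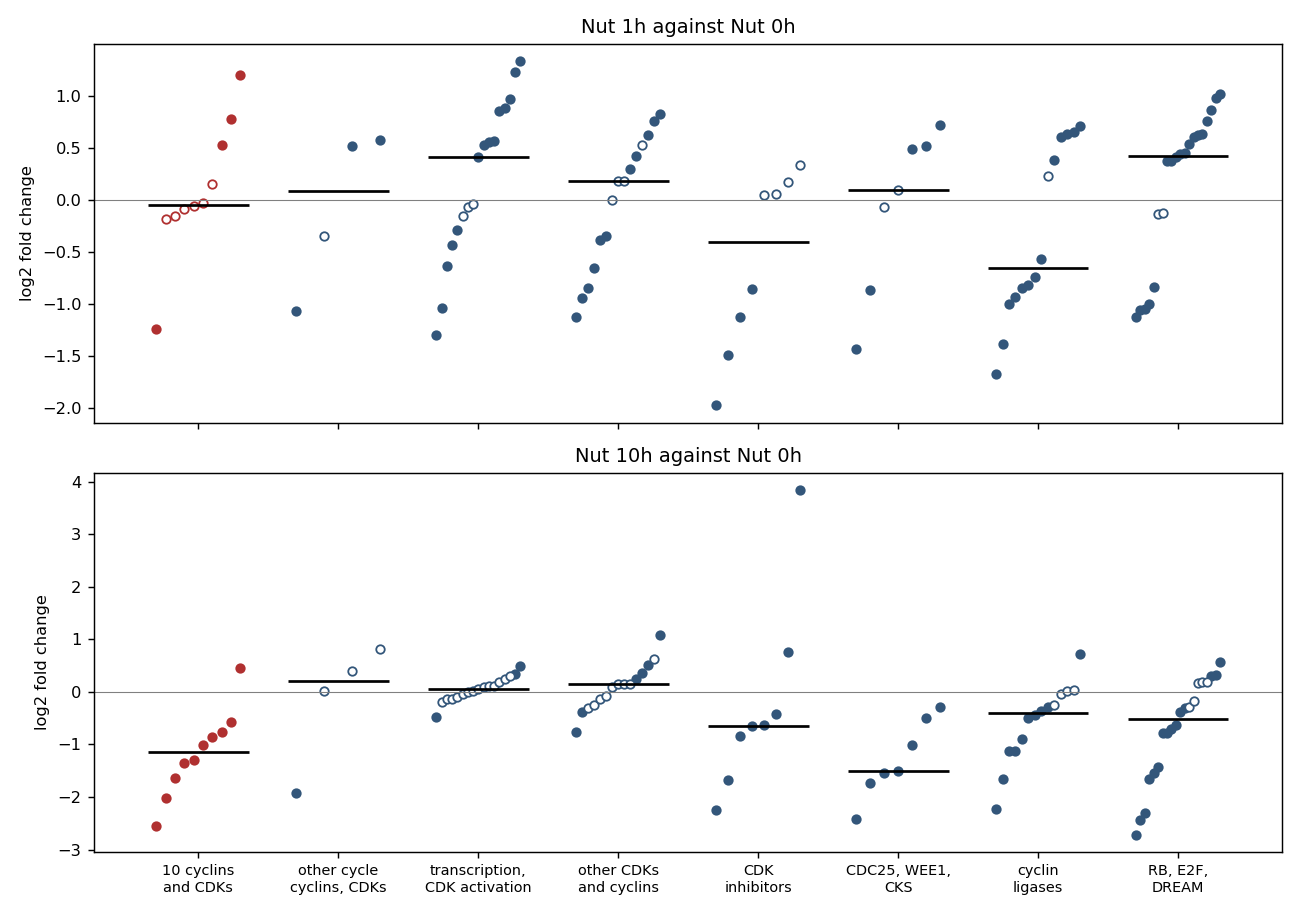
log2 fold changes of the 10 genes (red) and of the tested genes of 7 lists around them (blue) at Nut 1h (top) and Nut 10h (bottom) against Nut 0h; filled points had an adjusted p of at most 0.05, and bars are medians. At Nut 10h the medians of the 10 genes (-1.15) and of the CDK phosphorylation and CKS list (-1.50) lie lowest, and CDKN1A stands alone near the top.

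Some genes rose and fell in the same order as a cyclin over the 6 libraries. Likeness was the Pearson r of log2(CPM + 1) across libraries among 11575 genes whose mean normalized count reached 100, a measure that takes no account of the size of a change, given as a description, since the libraries share their depth, base composition and groups. The 5 genes most like CCNB1 were NEK2, EXO1, CKAP2L, TTK and NCAPG, of which NEK2, TTK and NCAPG act in mitosis, and 145 genes had an r above 0.99. NEK2, for example, had mean levels of 1548 normalized counts with vehicle, 2406 after 1 h and 394 after 10 h. The 5 most like CCNE2 were KIF11, CKS2, ETV5, AP3M2 and RFC1, and 179 genes passed 0.99. KIF11, a spindle motor, had 2579.8, 4658 and 737 normalized counts, whereas ETV5 moved much less (2735, 3039.8 and 2258). The 5 most like CCND1 were SRRD, ALDH2, TMEM43, PHYHIP and TMEM63B, with 57 genes above 0.99. Their sizes of change also differed: SRRD had 812, 753 and 992 normalized counts, and PHYHIP 54.4, 19.4 and 270.2. With a pseudocount of 0.1, 4 of the 5 stayed among the first 5 for CCNB1, 2 for CCNE2 and 4 for CCND1.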

How the data were processed

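Counts per gene for 6 HCT116 libraries were used as deposited. The submitters' processing notes name Trim Galore 0.6.6, STAR 2.7.0f, featureCounts (Subread 2.0.0), DESeq2 1.36.0 and GRCh37.p13, and the authors deposited raw counts; the strand setting of the counting is not given in the sources used here. A further table holds the authors' own fold changes and p-values; only its gene symbols were read. Genes passing filterByExpr were tested with edgeR 4.0.16 (R 4.3.3), TMM scaling, glmQLFit and glmQLFTest, all 6 libraries in 1 fit, with Benjamini-Hochberg adjustment over 16565 genes. Calls needed an adjusted p of at most 0.05, and no fold minimum was set. Intervals cover 95%. Replicates were labelled as biological; where they share a culture, p-values measure only the spread between these libraries. Loci, lengths and GC content came from GENCODE v44 lifted to GRCh37. The fit was tested on simulated data. Named genes were all 10 members, every CDK inhibitor and p53 check gene, the 2 largest rises and falls among called genes of each other list, and the 5 genes most like CCNB1, CCNE2 and CCND1. CCND2, CDK6 at Nut 10h, LTO1, TSPAN31, INTS8 and EXOSC9 were added after their values were seen, as were cyclin shares by mean transcript length. Members and lists were chosen with earlier results of these data known. Alternatives covered scaling, filters, DESeq2 1.42.0, limma-voom (limma 3.58.1), GC and length offsets, a replicate block and leaving out each library. One marker gene of another cell type is not reported here.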

Additional observations from a re-analysis of the deposited data

Results flagged for a closer look

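For all 10 genes the level at Nut 10h differed from that at Nut 1h, by a direct edgeR test of these groups at an adjusted p of at most 0.05. The 6 libraries hold no separate vehicle group for each time, so time and Nutlin-3a cannot be told apart in this comparison. The log2 differences were -3.75 for CCNE2, -2.17 for CCNB1, -2.16 for CCNA2, -1.53 for CDK1, -1.29 for CCNE1, -1.20 for CCNB2, -0.97 for CDK2 and -0.39 for CDK4, and 0.61 for CCND1 and 0.38 for CCND3. Against Nut 0h, whose libraries both comparisons share, CCNE2, CCNB1 and CDK1 were called in opposite directions at the 2 times, and CCND3 was lower at both. With the GC-content offset CCNB1 (-0.029) and CDK1 (-0.033) were not called at 1 h, so the opposite directions then held for CCNE2 alone of these 3, and between the 2 times CCNE2 differed by -2.98, CDK1 by -0.76 and CCNB1 by -1.64, while the CCND3 difference was -0.15 and not called. The CDK4 difference lost its call when the second Nut 1h library or the second Nut 10h library was left out. Between the 2 times 67.9% of all genes tested also differed.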

How the results depend on the processing

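At Nut 10h against Nut 0h, 9 lower and 1 higher held under every alternative except a minimum absolute log2 fold change of 1, under which 0 were higher and CCND1, CCND3, CDK1 and CDK4 lost their calls. At 1 h the number higher was 1 in place of 3 with that minimum, with the GC-content offset and with that offset and the replicate block, and CCNA2 was called higher with the length offset (0.34); the number lower was 2 in place of 1 with DESeq2 (CCND1, -0.21) or in a fit of the 2 groups alone (CDK4, -0.22) and 3 with either GC fit. Of the 10 h against 1 h calls, the number higher was 1 in place of 2 with either GC fit or the length offset (CCND3, 0.17), 0 with the fold minimum, and 1 to 2 when each library was left out. Of the lower calls, CDK2 (-0.97) and CDK4 (-0.39) fell short of the fold minimum. CDK4 also lost its call without the second Nut 1h or the second Nut 10h library. Signs turned at 1 h for CCNA2 (-0.42 and, with the block, -0.41), CCNB1 (-0.029), CDK1 (-0.033 and -0.032), CCNE1 (0.089) and CDK2 (0.10) with the GC-content offset with and without the block, for CCNB2 (0.13), CCNE1 (0.20), CDK2 (0.18) and CDK4 (0.085) with the length offset, for CDK2 with upper-quartile factors (0.00152) or library totals (0.027), and for CCNE1 without the first Nut 1h library (0.013, in a range over left-out libraries from -0.14). CCND3 turned to -0.15 in Nut 10h against Nut 1h with either GC fit. The cause was not tested. Deviations of same-number replicates correlated over genes at -0.31 (Nut 0h with Nut 1h), 0.45 (Nut 0h with Nut 10h) and -0.28 (Nut 1h with Nut 10h). The numbers thus did not pair the 3 groups in the same way, and spread shared between groups was not tested. The replicate block takes the numbers as pairs and cannot take out spread shared across unlike numbers. It kept 3 higher and 1 lower at 1 h, 1 and 9 at 10 h and 2 and 8 between them. Over all genes, 11077, 4810 and 11246 calls became 3974, 1135 and 4746 with the fold minimum, and 7304 at 1 h with the GC-content offset. The depth is least for CCNE2.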
